A study of Mus musculus with 2 samples.

Results

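The genes described here encode the nuclear subunits of the mitochondrial respiratory chain and of ATP synthase, complexes I to V of oxidative phosphorylation. They were taken by gene symbol from the platform annotation of the array, which gave 79 genes on 162 probe sets: 34 of complex I, 4 of complex II, 8 of complex III, 16 of complex IV and 17 of complex V. Each gene was read from its brightest probe set, and 76 of the 79 passed the filter on low signal, among 11122 genes measured in all. Probe sets annotated with several genes were left out, so subunits read only by such probe sets were not analysed here (9 such sets named a subunit, and the 7 that passed the filter had log2 ratios of -0.59 to -0.15), and the alternative isoforms Ndufa4l2 and Cox4i2 were not counted as core subunits.

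RNA came from embryoid bodies, clusters of embryonic stem cells at the start of differentiation, grown as hanging drops of CGR8 cells, a single mouse embryonic stem line of strain 129 that is kept without feeder cells. The control group was 1 array of embryoid bodies in differentiation medium with no added factor, and the FGF10 group was 1 array of embryoid bodies given recombinant FGF10, a secreted fibroblast growth factor, at 100 ng/ml. The labels place the RNA at day 2, whereas the series' design text counts 24 h from the treatment of 2-day embryoid bodies, and nothing states how many cultures each sample pooled. Values are MAS5 signals on a linear scale, and a ratio is log2 of FGF10 over control, centred on the median of kept probe sets. Each group is a single array, which allows no test and no replicate error, so every difference describes this pair of arrays.

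Complexes I, III and IV pass electrons from NADH and ubiquinol to oxygen and pump protons across the inner mitochondrial membrane, complex II feeds in electrons from succinate, and complex V uses the proton gradient to make ATP. Pluripotent cells make much of their ATP by glycolysis, and reliance on the respiratory chain grows as many lineages differentiate. Most subunits are encoded in the nucleus, and a small core of complexes I, III, IV and V is encoded by mitochondrial DNA.

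Most subunits had a slightly lower signal on the FGF10 array. Of the 76 measured, 66 had a ratio below 0 and 10 above it, against 53.5% of all genes below 0, and the median log2 ratio was -0.24 against -0.027 over all genes. At a fold of 1.2, 34 subunits were lower and 1 was higher, where 21.7% and 18.6% of all genes were. At 1.5-fold the numbers were 3 and 1 (4.86% and 5.41% of all genes), and at 2-fold they were 0 and 0 (1.29% and 1.32%). The differences were small and mostly of 1 sign. When the dependence on signal described next was removed by quantile or loess normalization, 56 of the 76 were below 0 (53% of all genes) and 11 were at least 1.2-fold lower (20.6% and 20.7% of all genes).

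Bright probe sets of any kind also had lower signals on the FGF10 array. When the measured genes were divided into 20 bins of signal, the median ratio of the brightest bin was -0.20 and that of the next was -0.12, and these 2 bins held 28 and 27 of the 76 subunits. Each subunit was therefore set against the 200 other genes nearest to it in signal. The median of these neighbours lay below 0 for 71 of the 76 subunits, and 24.8% of all pairings of a subunit with a neighbour had a neighbour at least 1.2-fold lower, against 44.7% of subunits. After subtraction of the neighbours' median, the median over all subunits was -0.11, with 57 subunits below their neighbours and 19 above. The ratio of the subunits thus had a component that genes of like signal share, with a median of -0.11 over the neighbours' medians.

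**Figure D1:**
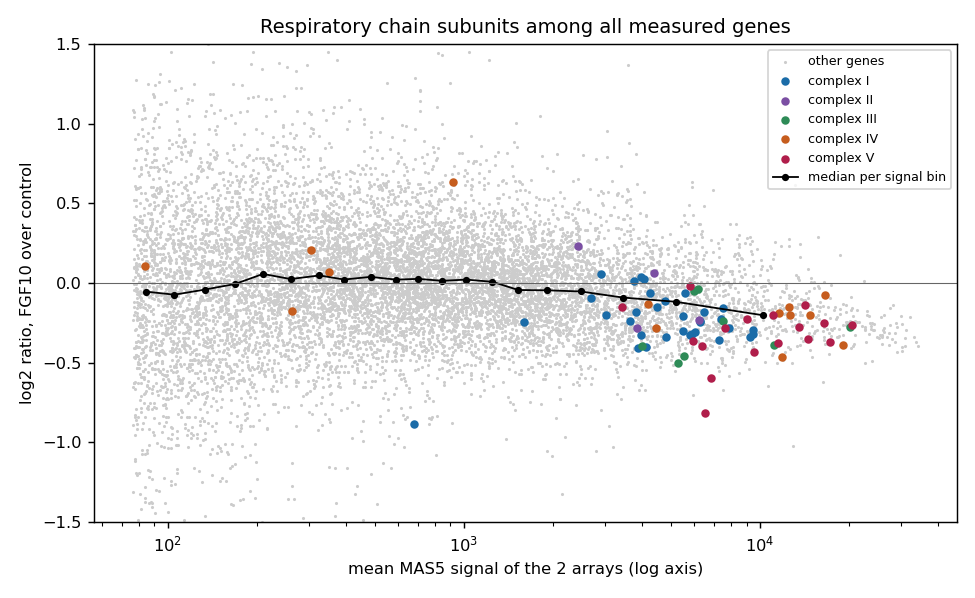
Log2 ratio of FGF10 over control against the mean signal of both arrays (log axis) for 11122 genes, with subunits coloured by complex and the black line joining the medians of 20 signal bins; 86 genes lie outside the plotted range. Most subunits sit at the bright end, where the black line descends to -0.20, and most of them lie below the line.

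The error within the arrays was taken from genes read by more than 1 probe set. Among 785 such genes whose brightest probe set had a mean signal of at least 3984.1, the technical SD of a log2 ratio was 0.18. The second probe set of a pair could be much dimmer. For the 45 subunits with such a pair the same measure was 0.15, and the value used below is 0.18. Neither covers variation between cultures. Relative to their neighbours, 24 subunits were lower by more than the SD of 0.18, 2 were higher and 50 lay within it. Neither this count nor the one at 2 SDs below was made for other genes, so neither shows how unusual the subunits are. Over all genes of signal bins 18, 19 and 20 (the brightest), which held 12, 27 and 28 subunits, the SD of the log2 ratio was 0.29, 0.22 and 0.19. Beyond 2 technical SDs, 4 were lower (Ndufb1, Atp5md, Atp5l and Uqcrq) and 1, Cox6b2, was higher. The technical SD was taken from bright genes, whereas Ndufb1 and Cox6b2 were dimmer. Over all 5213 genes with more than 1 kept probe set it was 0.27. In the signal bins of Ndufb1 and Cox6b2 the SD of the log2 ratio over all genes was 0.33 and 0.38.

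**Figure D2:**
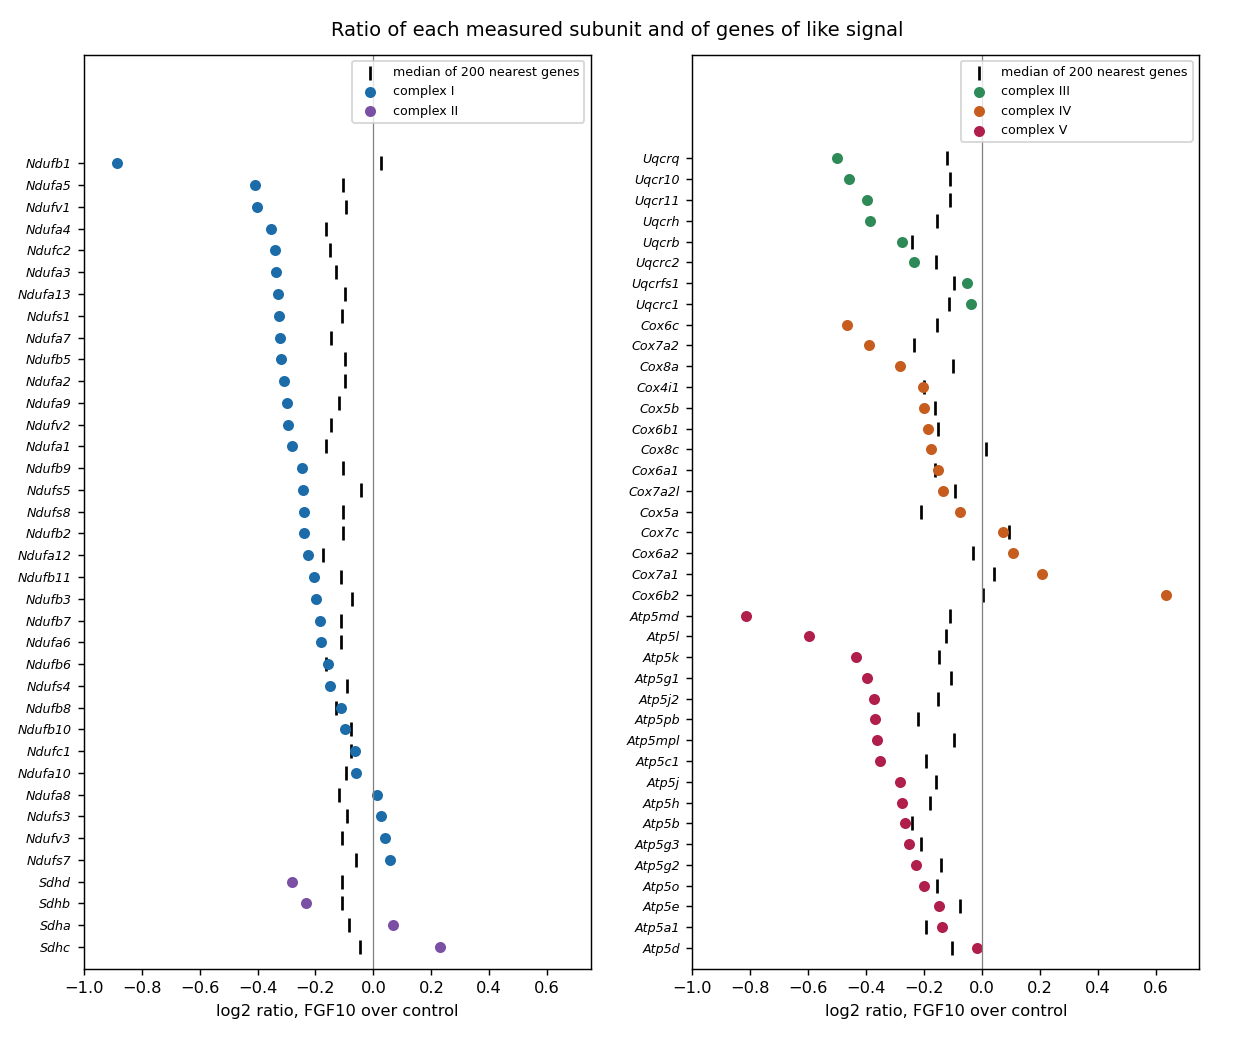
Log2 ratio of each of the 76 measured subunits (coloured dots), ordered within its complex, beside the median of the 200 genes nearest to it in signal (black ticks). Ndufb1 and Atp5md lie farthest to the left at -0.89 and -0.82, and Cox6b2 farthest to the right at 0.64.

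Complex I, the NADH dehydrogenase, had a median ratio of -0.24 over 33 measured genes and -0.13 relative to genes of like signal. Of its members 29 were below 0, 14 were at least 1.2-fold lower (42.4%, against 21.7% of all genes) and 0 higher (18.6% of all genes). After quantile or loess normalization 3 were lower by that fold (9.09%, against 20.6% and 20.7% of all genes). Ndufb1, a small accessory subunit of the membrane arm, was the lowest of all subunits, with a signal of 872.9 in the control and 483.8 with FGF10 (log2 ratio -0.89). It was read by 1 probe set, and its difference from genes of like signal was -0.91. Ndufa5, an accessory subunit of the peripheral arm, went from 4355.5 to 3363.5 (-0.41), and its second probe set gave -0.42.

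Of the 9 measured genes of the NDUFS and NDUFV series, which include the subunits that carry electrons and some that hold no redox centre, 6 were below 0 and 3 above. Ndufv1, which binds NADH and the flavin, had signals of 4649.9 and 3600.1 (-0.40), with a range of -0.40 to -0.088 over 3 probe sets. Ndufs1, the large iron-sulphur subunit, had signals of 4368.6 and 3568.1 (-0.33), and Ndufv2 10280.1 and 8588.1 (-0.29). The 3 genes above 0 were close to it. Ndufs7, which holds the last iron-sulphur cluster before ubiquinone, had signals of 2802.7 and 2984.8 (0.057, and -0.0058 on its second probe set), while Ndufs3, a core subunit with no redox centre, had 3967 and 4132.7 (0.025), and Ndufv3, a small accessory subunit, 3848.8 and 4054.9 (0.041). Ndufs7, Ndufs3 and Ndufv3 were above their signal neighbours by 0.12, 0.11 and 0.15, which is within the technical SD of 0.18. Ndufs8, another iron-sulphur subunit, was lower on all 6 of its kept probe sets, from -0.94 to -0.24, with the brightest at the upper end of that range. Ndufs4, an accessory subunit, went from 4659.8 to 4304.3 (-0.15) on its brightest probe set, with 0.054 and 0.12 on the other 2, and Ndufs5 from 1707.4 to 1478.4 (-0.24).

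Of the 12 genes of the A series, 11 had a ratio below 0, with a median of -0.30 (-0.18 relative to genes of like signal). Ndufa4, which the symbol places here although the protein is now counted as a subunit of complex IV, had signals of 8070.5 and 6462.5 (-0.35). Ndufa3 went from 5315.1 to 4311.4 (-0.34), Ndufa13, also known as GRIM-19, from 6385.3 to 5209.4 (-0.33), and Ndufa7 from 10370.8 to 8496.1 (-0.32), the last with all 5 probe sets between -0.47 and -0.15. Ndufa2 (-0.31), Ndufa9 (-0.30), Ndufa1 (-0.28), Ndufa12 (-0.23) and Ndufa6 (-0.18) followed, Ndufa10 was at -0.061 and Ndufa8 at 0.012. The second brightest probe set of Ndufa12 was at 0.081. At least 1.2-fold lower were 8 of the 12 (66.7%, against 21.7% of all genes). After quantile or loess normalization 1 was (8.33%, against 20.6% and 20.7% of all genes), and Ndufa10 was above 0 as well.

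The 12 measured genes of the B and C series, accessory subunits of the membrane arm for the most part, were all below 0 with a median of -0.20, except that Ndufc1 was above 0 after loess and Ndufb6 and Ndufc1 after quantile normalization. After Ndufb1 came Ndufc2, with signals of 10233.2 and 8274 (-0.34), and Ndufb5, with 6469.4 and 5312.4 (-0.32, but -0.028 on its second probe set). Ndufb9 (-0.25), Ndufb2 (-0.24), Ndufb11 (-0.21), Ndufb3 (-0.20), Ndufb7 (-0.18), Ndufb6 (-0.16), Ndufb8 (-0.11), Ndufb10 (-0.097) and Ndufc1 (-0.065) were closer to equal. Ndufb4 was read by 1 probe set, with signals of 7.5 and 39.8, both under the filter of 76.35, and is left without a ratio.

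Complex II, succinate dehydrogenase, is also an enzyme of the TCA cycle, and its 4 genes were split. Sdha, the flavoprotein, went from 4220.6 to 4524.7 (0.066), with 0.24 from its second probe set, while Sdhb, the iron-sulphur subunit, had signals of 6667.3 and 5803.9 (-0.23). Of the membrane anchors, Sdhc went from 2209.7 to 2653.9 (0.23) on one probe set and from 1209.5 to 977.3 (-0.34) on the other, and Sdhd from 4161.9 to 3504.1 (-0.28, and -0.20 on the second). The probe sets of Sdhc thus disagreed in sign. The median of the complex was -0.084, or 0.013 relative to genes of like signal, and its sign turned with the normalization, at 0.0094 after quantile and 0.025 after loess normalization.

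In complex III, the cytochrome bc1 complex, the large core proteins and the small subunits differed in their values. All 8 genes were below 0, with a median of -0.33, save that Uqcrc1 and Uqcrfs1 were above 0 after quantile or loess normalization. At least 1.2-fold lower were 5 (62.5%, against 21.7% of all genes), which were the small subunits. Of these, 3 kept that fold after either normalization (37.5% of the 8 genes, against 20.6% and 20.7% of all genes). Uqcrq, the ubiquinone-binding protein QP-C, had signals of 6108 and 4416.6 (-0.50), and its 2 dim probe sets, with control signals of 110.3 and 103.5, were at -0.85 and -0.88. Uqcr10 had signals of 6345.6 and 4726.5 (-0.46, with -0.31 and -0.084 on its other probe sets), Uqcr11 4487.2 and 3491.5 (-0.40), the hinge protein gene Uqcrh 12471.4 and 9773.4 (-0.39) and Uqcrb 21872 and 18503.3 (-0.28, and -0.14 on the second). The core protein gene Uqcrc1, with signals of 6186.6 and 6172.1 (-0.038), and the Rieske iron-sulphur protein gene Uqcrfs1, with 6015.1 and 5940 (-0.052), were nearly equal on both arrays, and the other core protein gene Uqcrc2 went from 8017.4 to 6969.5 (-0.24). Relative to genes of like signal the small subunits had a median of -0.29 and the other 3 genes one of 0.046, which was -0.15 when read from second brightest probe sets, where Uqcrc2 alone remained. The split into small and large subunits was made after their values were seen and carries no test.

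In complex IV, cytochrome c oxidase, 10 of 14 measured genes were below 0 (7 after quantile and 6 after loess normalization). At least 1.2-fold lower were 3 (21.4%, against 21.7% of all genes), and 1 was higher (7.14% against 18.6%). After either normalization 1 was lower by that fold (7.14%, against 20.6% and 20.7% of all genes). The median ratio was -0.16 and turned to 0.0059 after loess normalization, and relative to genes of like signal it was -0.026. Cox6c, a small membrane subunit, went from 13622.4 to 10101.4 (-0.47, and -0.24 on its second probe set), Cox7a2 from 21324.5 to 16651.7 (-0.39 and -0.38) and Cox8a from 4837.8 to 4072.3 (-0.28 and -0.26). Among the other widely expressed subunits, Cox4i1, which takes part in regulating the enzyme, had signals of 15578.6 and 13853.9 (-0.20). Cox5b was at -0.20, Cox6b1 at -0.19, Cox6a1 at -0.15 and Cox5a at -0.076. Cox4i1, Cox6b1 and Cox6a1 lay within 0.04 of genes of like signal, and each was slightly above 0 after loess normalization. Cox7a2l, which helps to join complexes III and IV into supercomplexes, had signals of 4316.6 and 4027.9 (-0.13), and its other probe sets were at -0.37 and -0.35. Cox7c was read by dim probe sets only, with signals of 336.5 and 362.1 (0.071) on the brighter one and 188.5 and 265.7 (0.46) on the other.

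Cytochrome c oxidase also has isoforms that are restricted to heart, skeletal muscle or testis. Cox6b2, the testis isoform of Cox6b1, was the one subunit of any complex at least 1.5-fold higher, with signals of 708.5 and 1127.7 (0.64, 1.55-fold), on a single probe set. It was 0.63 above genes of like signal, while Cox6b1 went from 12149 to 10938.5. The muscle isoform Cox7a1 went from 278.4 to 328.7 (0.21), Cox6a2 from 79.9 to 88.1 (0.11), just above the filter, and the testis isoform Cox8c from 275 to 249.5 (-0.17, but 0.17 on its second probe set). Cox7b2, with signals of 64.3 and 61.1, and Cox8b, with 41.6 and 8.2, were under the filter on both arrays. The other muscle and heart genes used as markers were dim too: of Myh6, Actn2, Tnnt2, Mb and Ckm, 2 passed the filter, and the summed signal of all 5 was 559.5 in the control and 543.1 with FGF10.

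In complex V, ATP synthase, all 17 genes had a centred ratio below 0, with a median of -0.28 (-0.12 relative to genes of like signal), but without centring Atp5d was above 0, and after quantile or loess normalization Atp5a1 and Atp5d were. At least 1.2-fold lower were 11 of them (64.7%, against 21.7% of all genes). After either normalization 4 were (23.5%, against 20.6% and 20.7% of all genes). The lowest 3, Atp5md, Atp5l and Atp5k, were small subunits of the membrane part that sit where ATP synthase forms dimers. Atp5j2 and Atp5mpl of the same class lay above Atp5g1 of the c-ring (-0.40). Atp5md, also known as DAPIT, had signals of 8254.8 and 4800.6 (-0.82, 1.76-fold lower), and Atp5l, subunit g, had 8151.8 and 5523.4 (-0.60). Atp5k, subunit e, went from 10840.5 to 8212.4 (-0.43, with all 3 probe sets between -0.43 and -0.33), Atp5j2, subunit f, from 12861.5 to 10169.3 (-0.37, and -0.44 on the second) and Atp5mpl, a small proteolipid, from 6586.4 to 5250 (-0.36). All 5 were at least 1.2-fold lower (3 after quantile or loess normalization), and their median was -0.29 relative to genes of like signal. This grouping too was made after the values were seen. Atp5md and Atp5l each rested on 1 probe set.

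The catalytic head of complex V lay nearer to genes of like signal. Atp5b, the catalytic beta subunit, had signals of 22049 and 18788.7 (-0.27), and Atp5a1, the alpha subunit, 14640.7 and 13629.1 (-0.14, and 0.031 on its second probe set). Atp5d, the delta subunit, had 5739.6 and 5812.9 (-0.016 after centring, and 0.10 on its second probe set), and Atp5e, the epsilon subunit, 3566.5 and 3292.4 (-0.15). Atp5c1, the gamma subunit of the central shaft, had 16099.8 and 12909.1 (-0.35), and its dim second probe set, with signals of 91.9 and 120.9, was at 0.36. The median of these 5 was -0.15 and -0.023 relative to genes of like signal, and the second brightest probe sets, present for 3 of them, gave 0.10. The peripheral stalk genes Atp5pb (-0.37), Atp5j (-0.28), Atp5h (-0.28) and Atp5o (-0.20), the last of which encodes the oligomycin sensitivity protein, had a median of -0.28. Atp5g1, Atp5g2 and Atp5g3 encode the same mature protein of the c-ring, and their signals went from 7150.9 to 5560.8 (-0.40), from 9620.1 to 8409.4 (-0.23) and from 17735.2 to 15236.3 (-0.25).

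**Figure D3:**
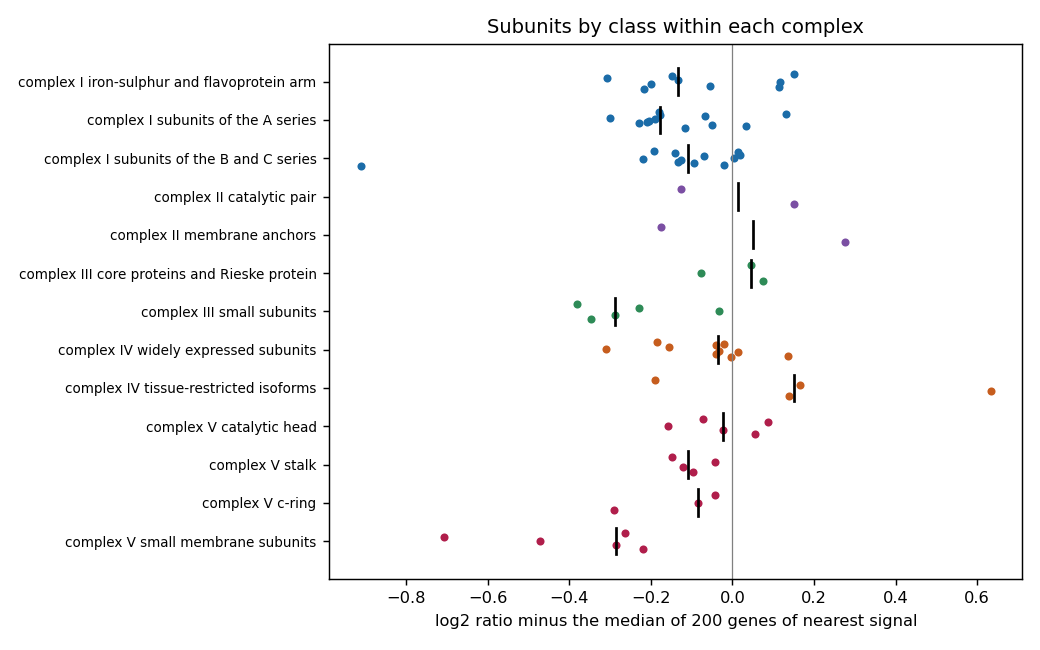
Log2 ratio of each subunit minus the median of the 200 genes nearest in signal, by class within each complex; dots are genes, spread vertically only to separate them, and black bars are class medians. The small subunits of complex III and the small membrane subunits of complex V have medians of -0.29 each, and the catalytic head of complex V has one of -0.023.

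Probe sets of the same gene read the same RNA and bear on error within the arrays only. For 45 subunits with at least 2 kept probe sets, the median was -0.24 on the brightest and -0.20 on the second brightest. In 33 of them both were below 0, in 2 both were above and in 10 the signs differed, so 77.8% shared a sign against 65.7% of all 5213 genes with such a pair and 74.4% of the 785 bright ones. Sdhc and Atp5c1 were the 2 subunits whose 2 brightest kept probe sets differed by more than 0.5. With all kept probe sets counted, those of Ndufs8 ran from -0.94 to -0.24 and those of Ndufa3 from -0.34 to 0.37. The other 31 subunits rested on 1 kept probe set. For 9 measured subunits (Atp5c1, Atp5k, Atp5l, Atp5pb, Cox5b, Cox7c, Ndufa12, Ndufs5 and Uqcrh) the gene table lists a processed copy or pseudogene of the same name, so their probes may also read such copies. The median was -0.35 for these 9 and -0.24 for the other 67.

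**Figure D4:**
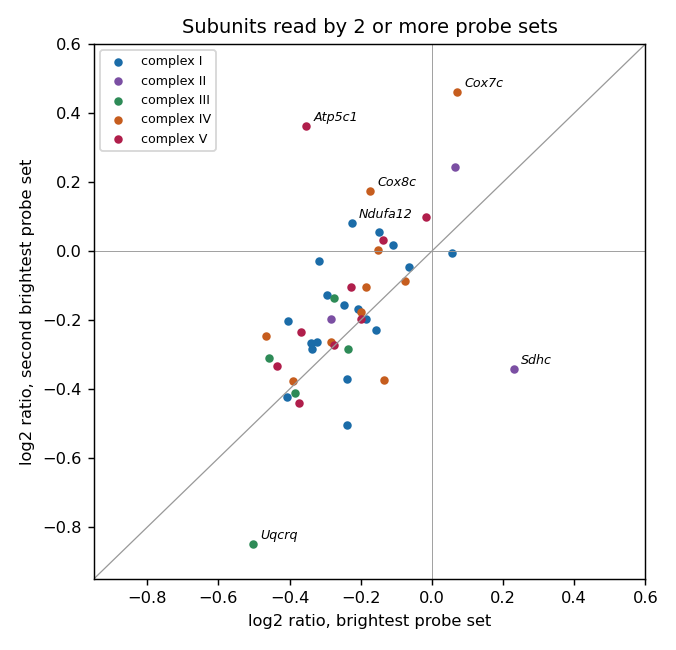
Log2 ratio on the second brightest against the brightest kept probe set of the 45 subunits with at least 2, coloured by complex, with the line of equality in grey. Most dots lie in the lower left, where both are below 0, and the labelled genes are those whose probe sets differ by the widest margins, among them Sdhc and Atp5c1 with opposite signs.

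Promoter sequence, which the choice by symbol did not use, was searched for short motifs. A promoter of the gene table (RefSeq, GRCm38.p6, 250 bases before to 50 after the start) was found for 66 of the 79 genes. NRF1, nuclear respiratory factor 1, is a transcription factor known for binding the promoters of many respiratory chain genes. The core of its motif, GCATGCG on either strand, was present for 10 of the 66 subunits (15.2%), for 7.79% of 9034 measured genes and for 4.01% of all 27025 genes with a promoter. The ETS motif CCGGAAG, bound by GABPA (nuclear respiratory factor 2), was held by 25.8% of subunits and 20.8% of measured genes, the YY1 motif AAGATGG by 15.2% and 8.51%, and the CCAAT box by 42.4% and 43.4%. Matches of different motifs were counted separately and may overlap. The median ratio was -0.23 for the 10 measured subunits with the NRF1 core and -0.24 for the 53 with a promoter but without it. The stretch around the NRF1 core is printed for the 7 subunits with 1 annotated start and a match before it, from lowest to highest ratio, to show the sequence around it. Capitals mark the core, and a run of 8 capitals is a match on both strands at once.
Atp5l: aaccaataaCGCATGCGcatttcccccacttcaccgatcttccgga
Atp5k: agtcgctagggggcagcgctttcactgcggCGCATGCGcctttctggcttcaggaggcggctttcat
Sdhb: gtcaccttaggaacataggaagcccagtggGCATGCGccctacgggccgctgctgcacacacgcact
Atp5g2: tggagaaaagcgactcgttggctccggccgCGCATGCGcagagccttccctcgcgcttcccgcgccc
Ndufa6: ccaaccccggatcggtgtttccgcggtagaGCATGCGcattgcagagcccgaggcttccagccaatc
Cox6a1: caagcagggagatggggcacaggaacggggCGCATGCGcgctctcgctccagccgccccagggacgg
Ndufa8: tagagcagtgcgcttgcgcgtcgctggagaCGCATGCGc
Each is written 5′ to 3′ on the strand of its gene: Atp5l at chr9:44920947-44920992 (minus strand), Atp5k at chr5:108434412-108434478 (minus), Sdhb at chr4:140961187-140961253 (plus), Atp5g2 at chr15:102671052-102671118 (minus), Ndufa6 at chr15:82354338-82354404 (minus), Cox6a1 at chr5:115349083-115349149 (minus) and Ndufa8 at chr2:36049339-36049377 (minus). All lie upstream of the annotated start, with 2 to 234 bases from the end of the first 7-base match to the start. In a run of 8 capitals that match ends just before the last capital. The 7 genes run from -0.60 for Atp5l to 0.012 for Ndufa8, within the -0.89 to 0.64 of all measured subunits.

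Proteins of the chain that no symbol pattern covered lay in the same range, though of the 4 nuclear genes 2 were above 0 after quantile and 3 after loess normalization. Cycs, the electron carrier cytochrome c, went from 20117.1 to 16322.7 (-0.34), Cyc1, cytochrome c1 of complex III, from 10256.9 to 9388.3 (-0.16), Ndufab1, the acyl carrier subunit of complex I, from 6695.7 to 6493.5 (-0.079) and Atpif1, the inhibitor of ATP synthase, from 8300.9 to 7929.3 (-0.10). ND5, the one subunit encoded by mitochondrial DNA that was named on the array, had signals of 13912.5 and 11794.9 (-0.27). The hypoxia-associated isoform Ndufa4l2 went the other way to Ndufa4, from 24.6 to 200. Its control signal was under the filter, and with that signal raised to the filter its ratio was 1.36. Cox4i2, the hypoxia-associated isoform of Cox4i1, had signals of 60 and 27.6, both under the filter.

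Assembly factors, which insert cofactors and put the subunits together, were lower about as often as all genes. Of 47, 26 lay below 0 (55.3%, against 53.5% of all genes), 11 were at least 1.2-fold lower (23.4% against 21.7%) and 4 were higher (8.51% against 18.6%), and their median ratio was -0.079 (-0.092 relative to genes of like signal). Coa7, a complex IV assembly factor, was the one past 1.5-fold, with signals of 1894.8 and 1220.5 (-0.67). Coa6 was at -0.57, while Higd2a (0.43), Cox15 (0.46), which makes heme A, Tmem186 (0.49) and Atpaf2 (0.50) were higher. The 4 complex II factors were all below 0, from Sdhaf1 at -0.39 to Sdhaf2 at -0.12.

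Genes of mitochondrial biogenesis and mitochondrial DNA expression had a median of -0.16 over 18 genes. Relative to genes of like signal it was -0.14, with 14 genes below their neighbours and 4 above. At least 1.2-fold lower were 3 (2 after loess normalization), and 0 were higher (against 18.6% of all genes). The 3 are 16.7% of the list, under the 21.7% of all genes, and were Ssbp1, which binds single-stranded mitochondrial DNA, from 13230.2 to 9563.2 (-0.50), Gabpb1, the partner of GABPA (-0.40), and Slirp, which stabilizes mitochondrial mRNAs (-0.38). Nrf1 was at -0.20, Tfam, which packages and transcribes mitochondrial DNA, at -0.18 and Gabpa at -0.23. The coactivator gene Ppargc1a was under the filter, with signals of 38 and 26.

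In the list of TCA cycle and pyruvate dehydrogenase genes, 2 of 21 (9.52%, under the 21.7% of all genes) were at least 1.2-fold lower. By that fold 3 were higher (14.3%, under the 18.6% of all genes). The median was -0.046, which turned to 0.031 after quantile and 0.034 after loess normalization. Pdha1, a catalytic subunit of pyruvate dehydrogenase, had signals of 3772.6 and 2971.1 (-0.38) and Idh3a, of isocitrate dehydrogenase, 7817.4 and 6581.4 (-0.28). Citrate synthase, Cs, had 4935.1 and 4900.7. The higher genes were Pdp2 (0.43), Pdhx (0.37) and Pdk2 (0.34), which act in or on the pyruvate dehydrogenase complex.

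Ribosomal proteins, abundant products of housekeeping genes, had values close to those of the subunits. The 76 measured mitochondrial ribosomal protein genes had a median ratio of -0.23 (-0.16 relative to genes of like signal), with 30 at least 1.2-fold lower (39.5%) and 1 higher (1.32%). The 46 cytosolic ones had -0.30 (-0.10), with 32 lower (69.6%) and 1 higher (2.17%), against 21.7% and 18.6% of all genes. By that fold, 25 mitochondrial (32.9%) and 4 cytosolic ones (8.7%) were lower after quantile or loess normalization, against 20.6% and 20.7% of all genes. After quantile normalization the medians were -0.17 for the mitochondrial and -0.0016 for the cytosolic ribosomal proteins, and -0.11 for the subunits.

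Some values of the whole arrays moved with the subunits. The chip's own control probe sets were lower too, at -0.30 for the 3′ set of beta-actin and -0.27 for that of Gapdh, and the highest signal of an array was 38424.4 for control and 30331 for FGF10. The ratio of 3′ to 5′ signal, a measure of RNA integrity, was 1.27 and 1.23 for beta-actin and 0.81 on both arrays for Gapdh. All 5 visceral endoderm markers were below 0, from Apoa1 at -1.27 to Afp at -0.15, and the summed signal was 5536.7 in the control and 3720.5 with FGF10. Of 6 stem cell and epiblast markers 4 were above 0 (5 without centring or after quantile or loess normalization), with sums of 32715.6 and 34509.2. Among them Pou5f1, a defining gene of pluripotent cells, had signals of 8157.8 and 8787.2 (0.073), and Utf1, another stem cell gene, had 4192.4 and 2589.8 (-0.73), past 1.5-fold in the other direction. The feeder and fibroblast list had sums of 3249.9 and 4477, mostly from Vim (0.52), which embryonic cells also express, while Thy1 went from 369.4 to 248.3 (-0.61) and Col1a1 and Postn were at most 9.4. The part of these in the values of the subunits was not tested, and in bulk RNA fewer cells of a type and less RNA per cell cannot be told apart.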

How the data were processed

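The authors' deposited values are linear MAS5 signal intensity, 1 per probe set and array; the submitters' processing notes give the tool but neither its version nor its settings. With 2% trimmed from either end, both columns have a mean of 500.003, so the arrays appear to have been scaled to 1 target, and ratios are relative to all other probe sets. The arrays, 1 per group, limit the precision, and 0 columns were left unused.

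Of 45101 probe sets, 64 were chip controls and 34945 had 1 gene symbol in the platform annotation. Kept probe sets had a mean signal of at least 76.35, the median of those that are not controls. The log2 ratio had no offset and was centred on the median of kept probe sets (0.034). For each of 79 subunits the brightest probe set was taken and set against the 200 other genes nearest in mean log2 signal. No draw at random was made. Technical SD is that of the difference between a gene's 2 brightest kept probe sets divided by the square root of 2. Named genes are those past 1.5-fold, the 3 highest and 3 lowest of each complex, and its brightest and dimmest. Isoform pairs, genes under the filter and genes whose 2 brightest kept probe sets differ by over 0.5 are named too. Other members are given for completeness. Members and lists were chosen with earlier results of these data known. All 79 symbols matched the gene table of GRCm38.p6 by gene identifier, and no build is given in the sources used here for the array values. The procedure was tested on simulated arrays with even noise and a shift planted in complex V. These held no dependence of the ratio on signal, so the test does not bear on how that dependence is handled. Python 3.11.15, numpy 2.4.6, pandas 2.3.3 and statsmodels 0.14.6 were used.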

Additional observations from a re-analysis of the deposited data

How the results depend on the processing

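There were 12 alternatives planned and 4 added after seeing the data. A value counts as moved here when it differs by more than the technical SD of 0.18 divided by the square root of the number of genes. This limit narrows as a group grows and ignores shifts that genes of an array share, so the label is no test. Leaving out the centring constant of 0.034, the same for every gene, already counts as moved for all subunits and complex I. The median over all subunits stayed below 0 in all 13 settings that bear on it, from -0.24 to -0.10, and relative to genes of like signal in all 16, from -0.13 to -0.076. Correction for signal moved the median of all subunits and of each complex. After loess normalization the medians were -0.10 for all subunits, -0.13 for complex I, 0.025 for II, -0.15 for III, 0.0059 for IV and -0.14 for V, and after quantile normalization -0.11, -0.14, 0.0094, -0.15, -0.0083 and -0.13, with 11 subunits at least 1.2-fold lower in either case. Both remove the common shift of bright probe sets by construction. Without centring the medians were -0.20 for all subunits and -0.20 for complex I. With the filter at the 75th percentile they were -0.21 and -0.20. Second brightest probe sets gave -0.20 for all 45 subunits that have one, -0.18 for complex I, -0.20 for II and -0.20 for V. On these sets 17 subunits were at least 1.2-fold lower and 1 at least 1.5-fold lower. The share of all genes past these folds on second brightest probe sets was not counted. Relative to genes of like signal, second brightest probe sets gave -0.097 for complex I, -0.21 for II and -0.27 for III. The mean over probe sets gave -0.20 for complex I and -0.11 for IV, and -0.13 for all subunits relative to genes of like signal. Without _x_at and _s_at probe sets the medians relative to genes of like signal were -0.076 for all subunits and -0.076 for complex V. The cause of these was not tested.

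The count of subunits at least 1.2-fold higher, 1 in the main setting, was 2 without centring, without a filter, with the filter at the 75th percentile, after loess or quantile normalization, with the mean over probe sets and on second probe sets, 3 without _x_at and _s_at probe sets, and 0 without the restricted isoforms or with members of signal 1000 or more. At 1.5-fold the count of 1 was 2 without a filter, where Ndufb4 enters at signals of 7.5 and 39.8, and 0 on second probe sets, without the restricted isoforms or with members of signal 1000 or more. At a fold of 1.1, 57 were lower and 3 higher, and at 2-fold 0 and 0. The share of all genes at 1.1-fold was not counted, and bright genes of any kind were lower too. The counts at that fold are therefore no result about the subunits. Of 441 values of the 36 named members under the alternatives, 416 stayed within the technical SD, 17 moved by more and 8, of members with a ratio beyond that SD, changed sign: Atp5c1 (0.0042 with the mean over probe sets, 0.36 on its second probe set, and 0.36 without _x_at and _s_at sets), Sdhc (-0.056 with the mean and -0.34 on its second probe set), Cox4i1 (0.0099 after loess and 0.0052 after quantile normalization) and Cox6b1 (0.0018 after loess). Smaller ratios of Atp5a1, Atp5d, Cox6a1, Ndufs7, Uqcrc1 and Uqcrfs1 also crossed 0 in some settings. The median of the complex V catalytic head was 0.10 on second probe sets. With 1 array per group no replicate could be left out. No paired analysis was possible because each group has 1 array.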
